A study of Sus scrofa with 48 samples.

Results

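Glycogen metabolism was followed in subcutaneous adipose tissue (SCAT) of pigs through 9 genes, taken by symbol: GYG1, PGM1, UGP2, GYS1, GYS2, GBE1, PYGL, PYGB and PPP1R1A. They were represented by 24 probes of 60 bases, all of which passed the filter on dim probes, out of 44356 probes kept on the array. The filter asked for a signal clearly over background on 9 or more arrays in any group of 12. Of the 9 genes, 8 had a probe, and PYGB, the phosphorylase form named for brain, had none under its symbol and is not analysed here.

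Transcript levels had been measured in 48 growing pigs, 12 per group, with 1 array per pig. The groups crossed 2 diets with 2 lines: HF_RFIneg and HF_RFIpl were pigs of the low and the high residual feed intake (RFI) line given feed high in fat and fiber (HF), and LF_RFIneg and LF_RFIpl were pigs of the same lines given feed low in both and rich in starch (LF). RFI sets what an animal eats against what its performance calls for. The lines had been selected in opposite directions over generations, and animals of the low RFI line are the more efficient. Per the labels all pigs were 132 days old and had free access to feed. Per the study's methods all were Large White barrows, the diets held equal energy per weight of feed, and starch in HF had been replaced in part by rapeseed and soybean oils, with wheat straw as the fiber. Each diet contrast below is therefore a contrast of fat, fiber and starch together, with feed intake left free, in castrated males of 1 breed.

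Glycogen is a branched store of glucose. Glycogenin (GYG1) starts the chain, phosphoglucomutase (PGM1) and UDP-glucose pyrophosphorylase (UGP2) prepare the activated glucose, glycogen synthase (GYS1 in most tissues, GYS2 best known from liver) lengthens the chain and the branching enzyme (GBE1) gives it its shape. Phosphorylase (PYGL, the form named for liver) releases glucose 1-phosphate again, and PPP1R1A, known as inhibitor 1, restrains protein phosphatase 1, which turns synthase on and phosphorylase off. Fat cells hold a small glycogen store that varies with feeding.

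The members' results turn on GYS2, whose 4 probes disagreed, so the probe sequences are shown first, as the array files give them. Capitals mark the longest run of bases that each probe shares, on the same strand, with any array probe of another name.
A_72_P388198: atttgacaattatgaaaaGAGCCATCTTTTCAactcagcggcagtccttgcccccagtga
A_72_P454928: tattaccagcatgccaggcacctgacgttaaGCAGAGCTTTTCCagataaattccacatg
A_72_P416118: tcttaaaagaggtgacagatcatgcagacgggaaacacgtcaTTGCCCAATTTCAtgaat
O9211: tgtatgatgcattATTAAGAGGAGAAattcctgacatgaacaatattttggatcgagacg
The shared run was 14 bases long for A_72_P388198 and 13 bases for each of the other GYS2 probes. With the GYS1 probes the longest shared run was 5 bases for A_72_P388198, 8 for A_72_P454928 and 6 for A_72_P416118 and for O9211. The array files place A_72_P388198 at base 1524, A_72_P454928 at base 2063 and A_72_P416118 at base 738 of their transcripts and give no position for O9211. They list no genome position for any probe.

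Levels are log2 processed signals after subtraction of each array's median kept probe, so that 0 is the median kept probe of that array and a step of 1 is a doubling. Levels of different probes cannot be set against each other, since probes differ in how they bind, and each probe was compared with itself between groups. A probe was called when its raw p was under 0.01, its fold change was above 1.1 and its Benjamini-Hochberg adjusted p over all kept probes was under 0.08, the cut-offs of the study's methods, in a limma fit of diet, line and their interaction.

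Between diets, UGP2 and the dim GYS2 probes A_72_P454928 and A_72_P416118 were lower in HF and PPP1R1A was higher. GYG1, PGM1, GYS1, GBE1 and PYGL gave no call. The dim GYS2 probe O9211 was also lower in HF, given as a description. Of the 24 member probes, 10 were called between diets (41.7%), against 13.1% of all kept probes. Among the 10, GYS2 O9211 passed the filter on dim probes only through a group where it was high, and without it 9 of 23 were called. The called members were 9 probes lower in HF, O9211 included, and 1 higher in HF. Of all kept probes 7.44% were called lower and 5.61% higher. With arrays scaled to their 75th percentile 3853 of 5737 called probes of the whole array were higher in HF, instead of 2489 of 5790, and 9 member probes were called. The median member difference (HF minus LF) was −0.15, O9211 included, beside −0.02 over all kept probes. Of the 24 differences 22 were negative, and the share over all kept probes was not counted. These probes were not 24 separate readings: probes of UGP2, PYGL and PGM1 overlapped by 54 to 60 bases with up to 57 of them identical, which left 19 separate stretches. In whole tissue, fewer cells of a type and less RNA per cell cannot be told apart.

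**Figure D1:**
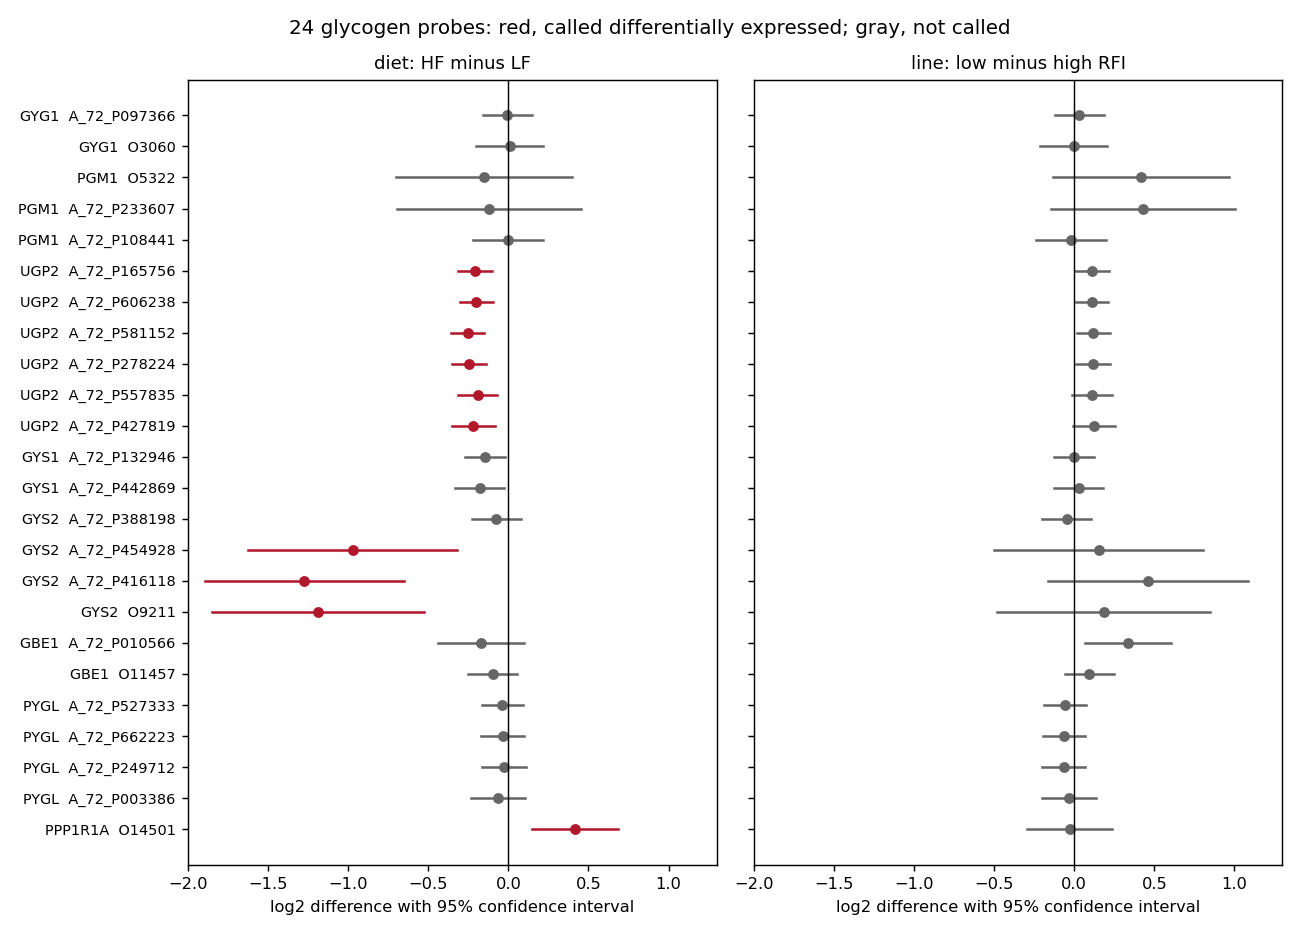
Log2 difference between diets (HF minus LF) for every glycogen probe with its 95% confidence interval, called probes in red and the others in gray (24 HF and 24 LF arrays). All 6 UGP2 probes and 3 of the 4 GYS2 probes are called and lie left of 0, and PPP1R1A is the only called probe to the right.

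UGP2, which makes the UDP-glucose that glycogen synthase uses, was lower in HF on all 6 of its probes, by 1.14 to 1.19 times. On probe A_72_P581152 the 12 arrays of HF_RFIneg ran from 3.35 to 3.83 with a median of 3.51, and those of HF_RFIpl from 3.1 to 3.67 with a median of 3.40. LF_RFIneg ran from 3.44 to 4.07 (median 3.80) and LF_RFIpl from 3.36 to 4.09 (median 3.58). The groups overlapped, yet 23 of 24 HF arrays lay under the LF mean and 8 LF arrays lay above the highest HF array. The mean level was 3.46 ± 0.15 in HF and 3.72 ± 0.21 in LF (SD, n = 24 each), a difference of −0.25 (SE 0.05, 95% confidence interval −0.36 to −0.15, adjusted p = 0.000855).

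The other UGP2 probes gave the same picture. A_72_P278224, which shares 57 bases with A_72_P581152, differed by −0.25 (adjusted p = 0.00175). The overlapping pair A_72_P165756 and A_72_P606238 differed by −0.21 and −0.20 (adjusted p = 0.00684 and 0.0068), and A_72_P557835 by −0.19 (adjusted p = 0.0333). These 5 probes start between bases 1880 and 1996 of their transcripts where a start is given, and moved together over the 48 arrays. A_72_P427819 starts at base 378 and followed the others only loosely (Pearson r between 0.05 and 0.45, against 0.77 to 0.95 among the other 5), but its diet difference was of the same size, −0.22 (SE 0.07, adjusted p = 0.0253). Its levels ran from 0.25 to 1.15 in HF and from 0.29 to 1.23 in LF, and 22 of 24 HF arrays lay under the LF mean. With arrays scaled to their 75th percentile A_72_P427819 was no longer called, and the other 5 UGP2 probes were called under all 12 alternative settings that use all arrays. The arrays had been scanned on 2 dates with 6 arrays of each group on each. The difference on A_72_P581152 was −0.23 on the first date and −0.28 on the second (adjusted p = 0.0677 and 0.0481 with 12 arrays per diet), and it was the only UGP2 probe called on both. A_72_P278224 was called on the second date alone (adjusted p = 0.119 and 0.0501). The other UGP2 probes were called on neither date, with differences from −0.21 to −0.14 on the first and from −0.30 to −0.19 on the second. Among them A_72_P427819 gave −0.14 and −0.30 (adjusted p = 0.384 and 0.0904).

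**Figure D2:**
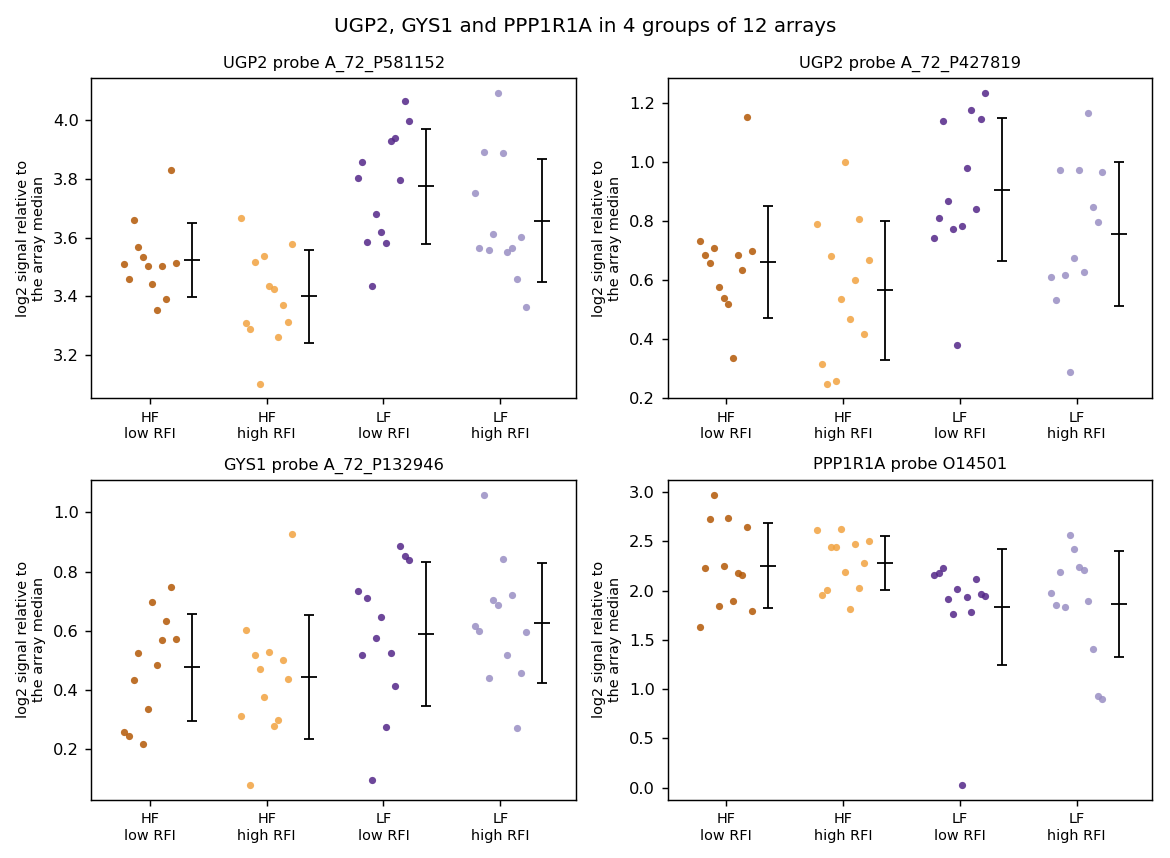
Level by group (log2, array median at 0) of 2 UGP2 probes, GYS1 and PPP1R1A, with 1 point per array and a black bar for the mean ± SD of the 12 arrays of a group. On UGP2 A_72_P581152 the HF groups had medians of 3.51 and 3.40 and the LF groups 3.80 and 3.58, while on PPP1R1A the HF medians of 2.20 and 2.36 lay above the LF medians of 1.96 and 1.93.

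For GYS2 the answer depended on the probe. A_72_P388198 was well above background on all 48 arrays and did not pass the test. Its levels ran from −0.66 to 0.17 in HF_RFIneg (median −0.33), from −0.60 to 0.26 in HF_RFIpl (median −0.21), from −0.68 to 0.19 in LF_RFIneg (median −0.14) and from −0.65 to 0.41 in LF_RFIpl (median −0.26). The 4 ranges nearly coincided, and the diet difference was −0.07 (SE 0.08, 95% confidence interval −0.23 to 0.08, adjusted p = 0.579).

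The other GYS2 probes were dim, spread widely between pigs and were lower in HF. A_72_P416118 ran from −5.54 to −1.31 in HF_RFIneg (median −3.35) and from −6.84 to −1.73 in HF_RFIpl (median −3.96). In LF_RFIneg it ran from −4.59 to −0.90 (median −2.06) and in LF_RFIpl from −4.59 to −1.52 (median −2.46). Both LF medians lay above both HF medians, with overlap, and 21 of 24 HF arrays lay under the LF mean. The difference was −1.28 (SE 0.31, 2.42-fold lower in HF, adjusted p = 0.00484). By scan date it was −0.89 on the first, without a call, and −1.66 on the second (adjusted p = 0.212 and 0.0583). O9211 is given as a description, since it passed the filter through LF_RFIpl alone. Its difference was −1.19 (SE 0.33, 2.28-fold lower in HF), with group medians of −4.93, −5.22, −3.30 and −3.91 in the order HF_RFIneg, HF_RFIpl, LF_RFIneg and LF_RFIpl. A_72_P454928 differed by −0.97 (SE 0.32, 1.96-fold lower, adjusted p = 0.0427), with group medians of −2.78, −3.06, −1.81 and −2.24 in the same order. On neither scan date alone was A_72_P454928 called (−0.81 and −1.14, adjusted p = 0.419 and 0.0987), and O9211 gave −0.79 and −1.59.

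These fold sizes lean on arrays where the spot was near background. In the order HF_RFIneg, HF_RFIpl, LF_RFIneg and LF_RFIpl, A_72_P416118 was well above background on 10, 7, 10 and 11 of 12 arrays. O9211 reached that on 3, 2, 8 and 9 arrays, so that it passed the filter through LF_RFIpl alone, and its call is given as a description. With no filter on dim probes the difference on O9211 was likewise −1.19. A_72_P454928 was well above background on 8, 9, 10 and 11 arrays. Where the background was modelled (normexp) instead of subtracted, the difference shrank to −0.49 on A_72_P416118 and −0.40 on A_72_P454928 (adjusted p = 0.00419 and 0.0162). On O9211 it shrank to −0.29. From the median signal with no background removed it was −0.61 on A_72_P416118 and −0.48 on A_72_P454928 (adjusted p = 0.00798 and 0.038), and −0.39 on O9211. The direction held in each case, and so did the call on A_72_P416118 and A_72_P454928. With the array's position on the slide as a block, A_72_P454928 was not called.

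A_72_P454928 and A_72_P416118, which start at different places, ranked the pigs alike: Pearson r between them was 0.83 over the 48 arrays, and 0.83 and 0.87 within the scan dates. O9211, well above background on fewer arrays, had r of 0.86 with each, given as a description. Against A_72_P388198 r was −0.12 for A_72_P454928 and 0.18 for A_72_P416118 (permutation test, adjusted p = 0.424 and 0.292 over 33 pairs of probes of 1 gene). In the same order r was −0.57 and −0.23 on the first scan date and 0.13 and 0.29 on the second, so that the sign differed by date. The diet difference of each probe minus that of the gene's brightest probe was also tested within arrays, in 16 pairs. A_72_P416118 lay 1.20 further down in HF than A_72_P388198 (difference −1.20, permutation test, adjusted p = 0.00592). For O9211, given as a description since it passed the filter through LF_RFIpl alone, the difference was −1.11. For A_72_P454928 the difference of −0.90 missed the 0.05 threshold (adjusted p = 0.074). On the first scan date the differences of A_72_P416118 and A_72_P454928 were −0.84 and −0.77 (permutation test, raw p = 0.0613 and 0.205), and on the second −1.56 and −1.03 (raw p = 0.00256 and 0.0184). With normexp A_72_P416118 still passed, at −0.43 (adjusted p = 0.00864). No pair of any other member passed, with adjusted p of 0.242 or higher.

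**Figure D3:**
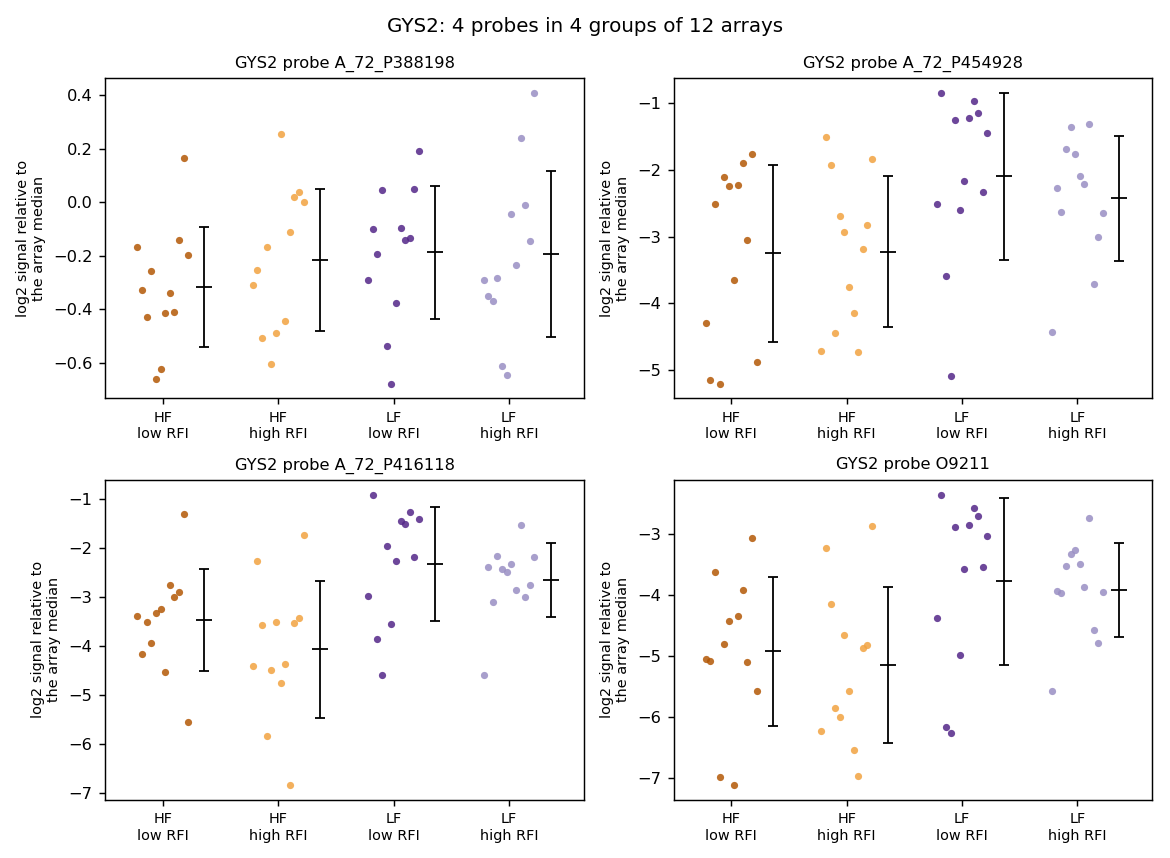
Level by group (log2, array median at 0) of the 4 GYS2 probes, with 1 point per array and a black bar for the mean ± SD of the 12 arrays of a group. A_72_P388198 stays between −0.68 and 0.41 in all groups, and the other probes spread over more than 4 log2 units with their HF means under their LF means.

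The pattern of A_72_P388198 was also unlike the others in its company. After the group means were taken out, 373 of 11067 genes followed it with r above 0.8 over the 48 arrays, a number that 1.67% of genes reached, and no gene followed any of the other GYS2 probes, UGP2 A_72_P165756 or PYGL A_72_P527333 so closely. The closest were SIM1 (r = 0.94, Spearman rho = 0.94), SPATA5L1 (r = 0.94, rho = 0.93) and NFATC4 (r = 0.94, rho = 0.93). For A_72_P454928 the closest were TMEM100 (r = 0.75, rho = 0.70), PLBD1 (r = 0.74, rho = 0.76) and FAM53C (r = 0.74, rho = 0.75). These are descriptions over arrays that share slides and scan dates.

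GYS2 is best known from liver but was read here in fat, and several liver transcripts were not evenly spread over the pigs. Of 5 liver markers 4 were measured and none was called between diets, but ALB (albumin) ran from −3.14 to 4.79 in HF and from −3.11 to 5.78 in LF, and TTR (transthyretin) from −5.06 to 4.44 and from −4.55 to 4.39. The TTR difference between diets was −1.18 (adjusted p = 0.173) and that of ALB −0.68 (adjusted p = 0.53). APOA2 was evenly spread, from 3.85 to 5.24 over all arrays, and differed by −0.09 (adjusted p = 0.618), while SERPINA1 spread from −5.55 to 4.46 and differed by −0.08 (adjusted p = 0.96). The summed linear level of the list, in units of the array median, ran from 16.1 to 34.4 in HF_RFIneg, from 16.2 to 90.9 in HF_RFIpl, from 16.6 to 112.6 in LF_RFIneg and from 14.7 to 49.3 in LF_RFIpl. The part of these transcripts in the GYS2 result was not tested.

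GYS1, the synthase of most tissues, was lower in HF on both probes without being called. On A_72_P132946 the levels ran from 0.22 to 0.75 in HF_RFIneg (median 0.50), from 0.08 to 0.93 in HF_RFIpl (median 0.45), from 0.09 to 0.89 in LF_RFIneg (median 0.61) and from 0.27 to 1.06 in LF_RFIpl (median 0.61). The shift was small against this spread, at −0.15 (SE 0.06, 95% confidence interval −0.27 to −0.02, adjusted p = 0.112). A_72_P442869 differed by −0.18 (SE 0.08, adjusted p = 0.118). Both had raw p under 0.05 (0.0199 and 0.0216), and both were called when arrays were weighted by their quality. A_72_P132946 was also called without HF_RFIpl replicate 12 (difference −0.17), LF_RFIneg replicate 4 or LF_RFIpl replicate 10, and A_72_P442869 without LF_RFIneg replicate 4. The difference on A_72_P132946 was −0.25 on the first scan date, where it was called (adjusted p = 0.0787), and −0.04 on the second (adjusted p = 0.857).

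GYG1, the primer of the chain, gave no call between diets. Its probes A_72_P097366 and O3060 followed each other closely (r = 0.92), with diet differences of −0.01 (SE 0.08, 95% confidence interval −0.16 to 0.14) and 0.01 (SE 0.10, −0.20 to 0.22). The group medians on A_72_P097366 were 1.91, 1.89, 1.95 and 1.84 for HF_RFIneg, HF_RFIpl, LF_RFIneg and LF_RFIpl. A fall as large as that of UGP2 A_72_P581152 lies outside both intervals.

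GBE1, the branching enzyme, was likewise not called between diets. A_72_P010566 ran from 1.74 to 4.03 in HF_RFIneg (median 2.87), from 1.99 to 3.01 in HF_RFIpl (median 2.46), from 1.76 to 3.51 in LF_RFIneg (median 3.16) and from 1.89 to 3.51 in LF_RFIpl (median 2.71). Its diet difference was −0.17 (SE 0.13, adjusted p = 0.449) and that of O11457 −0.10 (SE 0.08, adjusted p = 0.447). On the first scan date A_72_P010566 was called at −0.35 (adjusted p = 0.0799), and on the second it was at 0.01 (adjusted p = 0.993).

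PYGL, which breaks glycogen down, gave no diet call on 4 probes, with differences from −0.06 to −0.03 (adjusted p from 0.688 to 0.834). On A_72_P527333 the group medians were 5.0, 5.11, 5.09 and 5.20 in the order HF_RFIneg, HF_RFIpl, LF_RFIneg and LF_RFIpl, with all arrays between 4.59 and 5.58. Its 95% confidence interval of −0.17 to 0.09 does not reach the size of the UGP2 A_72_P581152 fall. Of the PYGL probes 3 overlap and moved as a block (r from 0.96 to 0.98). The separate probe A_72_P003386 followed them with r of 0.55 to 0.57 and differed by −0.06 (SE 0.08). The closest genes to A_72_P527333 were NDFIP1 (r = 0.74), TTLL1 (r = 0.73) and FDPS (r = 0.72).

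PGM1 fell into 2 levels, with arrays of every group at each. On O5322 no array lay between 3.06 and 3.87: 11 arrays were below this gap and 37 above it, and the lowest array was at 2.21 and the highest at 5.61. The overlapping probe A_72_P233607 had an empty stretch from 2.92 to 3.74 with the same 11 arrays below it. They were 3 HF_RFIneg, 3 HF_RFIpl, 1 LF_RFIneg and 4 LF_RFIpl pigs, 6 on the first scan date and 5 on the second, on 5 of the 6 slides. An array probe with no gene name and the same 60 bases as O5322 showed a gap of 0.88 with 11 arrays below it, split over the groups in the same way. The third PGM1 probe, A_72_P108441, lies elsewhere in the transcript and had no such gap. It ran from 0.77 to 2.28 over all arrays and from 0.94 to 2.14 in those 11. No other member probe had a wider gap with at least 5 arrays on each side.

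**Figure D4:**
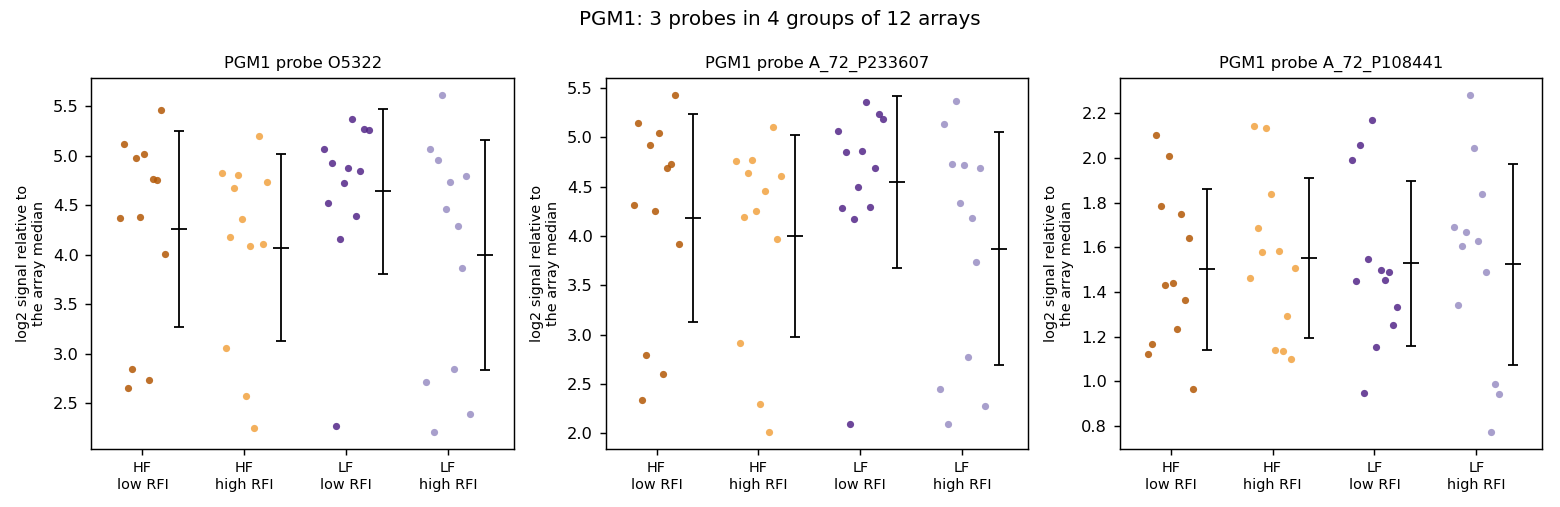
Level by group (log2, array median at 0) of the 3 PGM1 probes, with 1 point per array and a black bar for the mean ± SD of the 12 arrays of a group. O5322 and A_72_P233607 leave an empty band near 3 to 4 with 11 arrays under it in all 4 groups, and A_72_P108441 forms a single cloud between 0.77 and 2.28.

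With arrays split in this way the PGM1 means have wide errors. The diet difference was −0.15 (SE 0.27, adjusted p = 0.775) on O5322, −0.12 (SE 0.29, adjusted p = 0.837) on A_72_P233607 and 0.00 (SE 0.11, 95% confidence interval −0.22 to 0.22) on A_72_P108441. The 95% confidence intervals of the overlapping pair, −0.70 to 0.40 and −0.70 to 0.46, include a fall as large as that of UGP2.

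PPP1R1A, the phosphatase inhibitor, was the only member higher in HF. Its probe O14501 ran from 1.63 to 2.97 in HF_RFIneg (median 2.20) and from 1.81 to 2.62 in HF_RFIpl (median 2.36). In LF_RFIneg it ran from 0.02 to 2.23 (median 1.96) and in LF_RFIpl from 0.90 to 2.56 (median 1.93). The groups overlapped, with 20 of 24 HF arrays above the LF mean and a lower tail in LF. The mean was 2.27 ± 0.35 in HF and 1.85 ± 0.55 in LF (SD, n = 24 each), a 1.33-fold difference of 0.42 (SE 0.13, 95% confidence interval 0.15 to 0.68, adjusted p = 0.0329). It was called under all 12 alternative settings with all arrays and with any 1 of the 48 arrays left out, between 0.33 and 0.45. The difference was 0.22 on the first scan date (adjusted p = 0.388) and 0.61 on the second (adjusted p = 0.134). It rests on 1 probe. The genes closest to it after removal of group means were HAGH (r = 0.82, rho = 0.68), NDUFS3 (r = 0.82, rho = 0.74) and FABP3 (r = 0.82, rho = 0.69), and none of these was called between diets.

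No difference between the lines in their response to diet was detected. Within the low RFI line 2 member probes were called, UGP2 A_72_P581152 and A_72_P278224, where 3.04% of all kept probes were called. Within the high RFI line UGP2 A_72_P581152 was called, where 1.66% of all kept probes were. Its difference was −0.25 in the low RFI line and −0.26 in the high RFI line, and the interaction was 0.01 (95% confidence interval −0.20 to 0.21). For PPP1R1A the difference was 0.42 in both (adjusted p = 0.265 and 0.298), with an interaction of 0.00 and a wide interval of −0.53 to 0.53. With 1 array left out, between 0 and 4 member probes were called within each line, so that these counts hang on single arrays. The interaction of diet and line called no member probe, none had a raw p under 0.05, the lowest being 0.237, and 0% of all kept probes were called for it.

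Line on its own called no member probe by limma, beside 1.37% of all kept probes. Raw p was under 0.05 on 5 member probes, 4 of UGP2 and 1 of GBE1, and the lowest adjusted p was 0.295. Those of UGP2 were the overlapping pairs A_72_P165756 with A_72_P606238 and A_72_P581152 with A_72_P278224, so not separate readings. The share of all kept probes with such a raw p was not counted. The 6 UGP2 probes were higher in the low RFI line by 0.11 to 0.12. On A_72_P581152 the difference (low minus high RFI) was 0.12 (SE 0.05, 95% confidence interval 0.02 to 0.22, adjusted p = 0.357), at 0.03 on the first scan date and 0.21 on the second. On GBE1 A_72_P010566 it was 0.33 (SE 0.13, adjusted p = 0.295), at 0.50 on the first scan date, where it was called (adjusted p = 0.0386), and 0.17 on the second (adjusted p = 0.947). GBE1 O11457 gave 0.09 (SE 0.08). Within a diet, line called no member, against 0.0113% of all kept probes in HF and 0.0338% in LF. Raw p was under 0.05 on 1 member probe in HF, GBE1 A_72_P010566, and on none in LF.

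Most called genes of the wider pathway were lower in HF. Of 51 further genes around glycogen, listed by function, 42 were measured, each at its brightest kept probe. Of these 16 were called between diets (38.1%), 15 lower and 1 higher in HF, against 12.6% of all 11075 named genes called, and 9.22% called lower. The median difference was −0.10, beside −0.04 over all named genes, and 33 of 42 were negative. The share of negative differences over all named genes was not counted. These values were taken from the main setting alone. With arrays scaled to their 75th percentile, 3853 of 5737 called probes of the whole array were higher in HF. Whether the pathway directions hold under that scaling was not tested. Read the same way, at the brightest probe, 2 of the 8 measured members were called, UGP2 and PPP1R1A.

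Hexokinases, which trap glucose as glucose 6-phosphate, were among the genes that fell. HK2 was at 4.49 ± 0.58 in HF and 5.28 ± 0.38 in LF (SD, n = 24 each), 1.74-fold lower (difference −0.80, SE 0.14, adjusted p = 0.000181), on both of its probes. HK1 differed by −0.33 (adjusted p = 0.0274, all 3 probes called) and HK3 by −0.16 (adjusted p = 0.0505). SLC2A4, the insulin-responsive glucose transporter, differed by −0.36 without a call (adjusted p = 0.169).

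Of the 4 kinases that act on glycogen synthase or prepare it for others, 3 were lower in HF. GSK3B differed by −0.23 (SE 0.05, adjusted p = 0.00189) with all 3 probes called, GSK3A by −0.48 (SE 0.12, adjusted p = 0.00682) and CSNK2A1, a casein kinase 2 subunit, by −0.26 (adjusted p = 0.000294). GSK3A rests on 1 probe of low signal, with means of −2.08 in HF and −1.60 in LF. Its size under other background settings was not tested. DYRK1A gave 0.02. The AMPK subunits PRKAA1 and PRKAB2 fell by 0.16 each, and 3 other subunits were not called. PPP1R3C, which brings protein phosphatase 1 to glycogen, differed by −0.39 (SE 0.12, adjusted p = 0.0287) with all 3 probes called, and PPP1R3B by −0.54 without a call (adjusted p = 0.11).

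Breakdown and upkeep gave calls as well. GAA, the lysosomal glucosidase, differed by −0.26 (adjusted p = 0.00138), STBD1, a glycogen-binding protein with a dim probe, by −0.56 (adjusted p = 0.0172), and EPM2A, the glycogen phosphatase laforin, by −0.28 (adjusted p = 0.0149). PYGM, the muscle phosphorylase, differed by −0.44 (adjusted p = 0.0345) with 2 of 3 probes called. PYGM is also a muscle marker. At their brightest probes the other 8 muscle markers were not called, though all 8 differences were negative, from −0.50 for MYL1 to −0.08 for ACTA1, and 1 probe each of MYH7 and CKM was called. The summed linear level of the 9 muscle markers ran from 25.0 to 48.6 array medians in HF and from 26.5 to 58.1 in LF. The part of muscle transcripts in the PYGM result was not tested. None of 3 phosphorylase kinase subunits was called. PGM5, a phosphoglucomutase relative that is a muscle adhesion protein, was the only one of the 42 called higher in HF, by 0.30 (adjusted p = 0.0165), and the only one called by line, where it was lower in the low RFI line by 0.34 (difference −0.34, adjusted p = 0.0343, with 1.29% of all named genes called). PGM2L1 was also called between diets, at −0.23 (adjusted p = 0.0559).

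**Figure D5:**
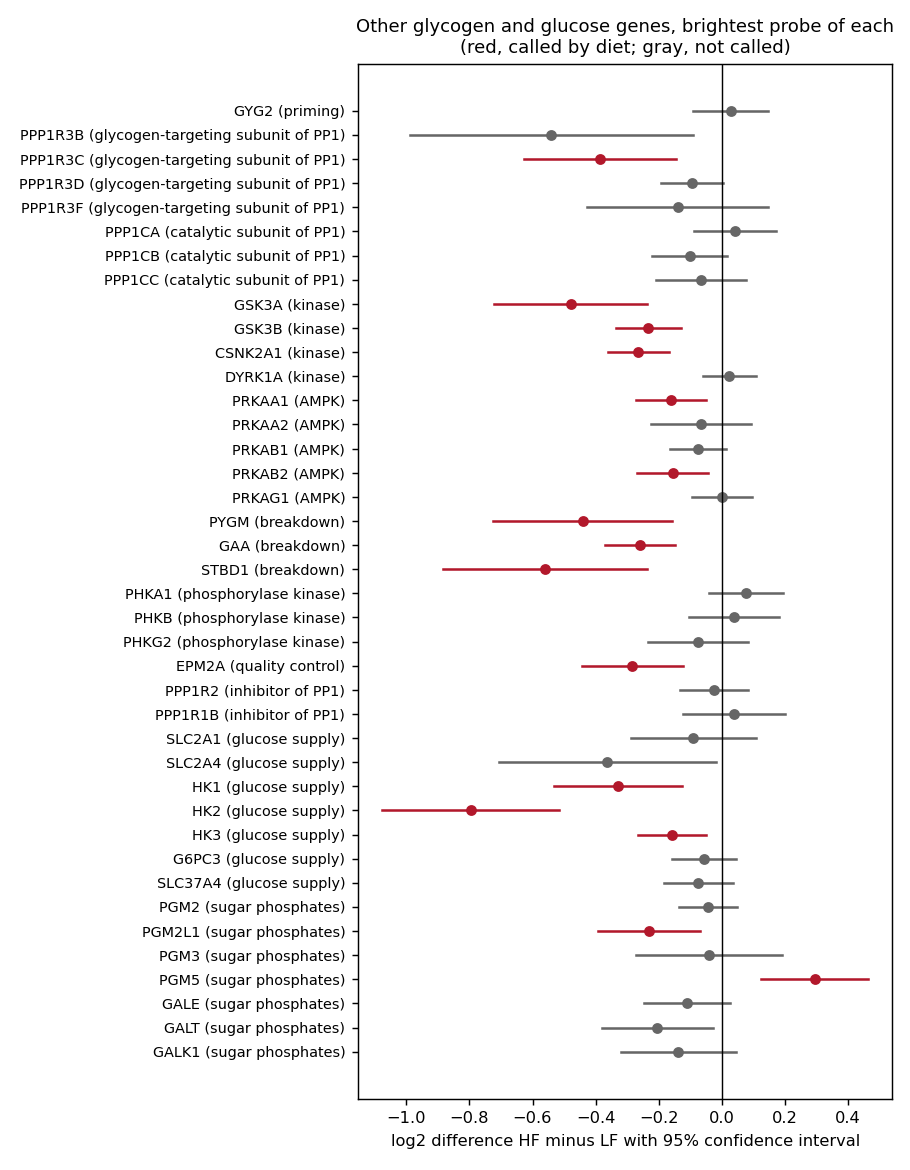
Log2 difference between diets (HF minus LF) of 40 of the 42 further genes measured around glycogen, each at its brightest kept probe, with 95% confidence intervals. Called genes are in red and the others in gray, and genes not plotted are not reported here. The 14 plotted genes called lower in HF lie left of 0 and PGM5 is the only called gene to the right.

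The genes closest to UGP2 A_72_P165756 were CMAS (r = 0.77, rho = 0.74), COQ10B (r = 0.75, rho = 0.74) and CCT8 (r = 0.75, rho = 0.73), and all were themselves lower in HF, by 0.22, 0.28 and 0.15 on the log2 scale (differences of −0.22, −0.28 and −0.15).

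The labelled tissue was checked on its markers. All 7 adipocyte genes measured were well above background on all 48 arrays, and their summed linear level ran from 2064 to 2937 array medians with the 4 groups overlapping. At the brightest probe of each gene, LEP, the hormone leptin, was the only adipocyte marker called between diets (difference −0.67, adjusted p = 0.00494), and 2 of 9 ADIPOQ (adiponectin) probes were called in the opposite direction, higher in HF. None of the 7 macrophage, 4 measured blood cell and 4 endothelial markers was called between diets, and none of any list between lines. Between 62.2% and 81.9% of probes were well above background on an array. No spot was saturated, and no pair of arrays was identical. Each slide held 2 arrays of each group, so that slide and scan date are balanced over diet and line. The array's position on the slide was not balanced over diet. With position as a block 4287 of all kept probes were called between diets, against 5790 without it. Between lines 262 were called, against 606.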

How the data were processed

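RNA of subcutaneous adipose tissue from 48 pigs had been labelled with Cy3 during linear T7 amplification and hybridised to a custom porcine array. The authors quantified the scans with Feature Extraction 10.7.3.1. In the deposited scanner files the intensity is given for each of 60306 non-control spots. A second file that the authors deposited, made in R 2.10.0, holds log2 values of 38987 probes: the log2 median signal minus the array median, with a largest difference of 4.87e-09 from the scanner files. It was used as an alternative.

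The background-subtracted processed signal was taken to log2 and centred on each array's median over 44356 kept probes. The 227 flagged spots were set to missing, none of them on a member probe. Control spots were left out. Groups came from the sample titles. Differences were fitted over all 48 arrays with limma 3.58.1 (R 4.3.3, lmFit and eBayes with a trend), two-sided. Differences between probes of 1 gene used two-sided permutation tests with 100000 resamples. Correlations with other genes were taken after removal of group means. The fits and permutation tests were tested on simulated data.

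Probes were named from the array files and the reference gene tables of Sscrofa11.1, and no genome positions were used. All member probes are reported. Of the pathway list the called genes were named, with values for the 12 of lowest raw p, except for genes that are not reported here, and further genes (SLC2A4, PPP1R3B, DYRK1A, HK3, PRKAA1, PRKAB2, PGM2L1) were picked with their values in view. The 3 genes most like selected member probes were also named. The members, lists and tests were chosen with earlier results of these data known. The number of arrays limits the precision.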

Additional observations from a re-analysis of the deposited data

How the results depend on the processing

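The diet count of 10 member probes, O9211 included, was 9 to 12 under all settings that use all arrays except the authors' table. That table gave 7 of the 20 member probes it holds. With 1 array left out the count was 10 to 12. On the first scan date alone it was 3 and on the second 4, and line gave 1 on the first. Line and interaction gave 0 with any array left out. Within the low RFI line (2 probes) the count was 1 from the median signal, 0 with 75th percentile scaling or quantile normalization, 1 with no filter on dim probes, 1 from the authors' table, 8 with array weights, and 0 to 4 with 1 array left out. Within the high RFI line (1 probe) it was 0 with 75th percentile scaling, quantile normalization or no filter, 2 from the authors' table, 3 with slide or scan date as a block, 5 with array weights, and 0 to 4 with 1 array left out. Tests of probe against probe (2 passing, of which O9211 is given as a description only) gave 1 with normexp, 1 from the median signal, and 0 from the authors' table, which lacks the dim GYS2 probes. The cause of these changes was not tested. No called member changed sign.

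The labels number the pigs 1 to 12 in each group, and same-numbered arrays lay on 1 slide. The correlation of their deviations from the group means ran from −0.19 to 0.45 (median 0.16), over 0.1 in 48 of 72 pairs. For 17 of 48 arrays the closest array of another group had the same number. The numbers were not taken as pairs, since not every pair reached 0.1, but these values hint at something shared between same-numbered arrays. The shared slide and any other tie between them cannot be told apart. With the replicate block 10 member probes were called by diet, 0 by line, 0 for the interaction, 2 within low RFI and 4 within high RFI.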

Other observations

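Several limits bear on these values. The 3 dim GYS2 probes were near background on many HF arrays, so that their fold sizes depend on how background was treated. PPP1R1A and most of the wider pathway genes rest on 1 probe. The diets differed in fat, fiber and starch together, and intake was free, so that nutrient and amount eaten cannot be told apart. Transcript levels say nothing of glycogen content or enzyme activity, which were not analysed here.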
